A study of Mus musculus with 4 samples.

Results

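The nuclear-encoded subunits of the mitochondrial respiratory chain and ATP synthase were followed in the epithelium of 2 parts of the small intestine, jejunum and ileum, in mice with either of 2 forms of the DAO gene. The members were all genes on the array whose name begins with Nduf, Uqcr, Atp5 or Cox4 to Cox8, or is Sdha, Sdhb, Sdhc or Sdhd. This name rule found 92 genes (143 probes) among 37074 genes (56605 probes). Of the 92, 82 are listed here as subunits: 36 of complex I, 4 of complex II, 8 of complex III, 19 of complex IV and 15 of complex V. The other 10 carry similar names but are no subunits, namely 7 Ndufaf assembly factors of complex I, Atp5s, Atp5sl and the pseudogene Atp5c1-ps. Cox5b was not found under that name and was not analysed here.

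The chain passes electrons from NADH through complex I, or from succinate through complex II, to ubiquinone, then through complex III and cytochrome c to complex IV, which reduces oxygen. Complexes I, III and IV pump protons, and complex V lets them flow back to make ATP. Most subunits are encoded in the nucleus, a few core ones in mitochondrial DNA (mtDNA), so the cell has to make both sets. Absorptive cells of the small intestine, the enterocytes, are rich in mitochondria and use the ATP for nutrient transport.

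RNA came from mechanically scraped jejunal or ileal epithelium of mice aged 9 weeks on the C57BL/6J background. All mice, controls included, were Tcrbd-/- (no T cell receptor beta or delta chain), and they were either DAOwt/wt (wild-type) or DAOG181R/G181R (G181R). DAO is D-amino acid oxidase, and G181R is an allele known to remove most of its activity. Tissue and genotype together make 4 groups, and every group is a single array hybridised with RNA pooled from 5 mice, so no value has a replicate, no error between animals could be computed within a group and no test was made. A model that adds tissue and genotype would leave 1 residual degree of freedom, by taking the genotype difference to be the same in both tissues, and was not fitted. All 4 arrays lay on 1 slide.

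Each value is the background-subtracted probe signal after log2, less the array's 75th percentile. For printing it was put back on the linear scale and is called the scaled signal. It compares 1 probe between arrays, not 1 gene with another. The brightest probe of a gene represents it, and the gene is called measured in a comparison if that probe's signal was well above background on each of the 2 arrays. On that rule 79 of the 82 subunits were measured on all 4 arrays. The only error at hand is technical. For 300 probes printed 10 times, the SD of a log2 difference between arrays was 0.0396 to 0.0437 (median over probes, n = 10 spots matched by position). Some subunit genes had several bright probes, with a mean scaled signal over the 4 arrays of at least 1000. The SD of the log2 difference between those probes was 0.034 to 0.057 (median of 21 genes). Between 57.4% and 60.4% of probes were well above background and 0 spots were saturated. The epithelial marker list (Epcam, Cdh1, Vil1, Krt8, Krt18, Krt19 and Krt20) was measured for 7 of 7 genes, with a summed scaled signal of 247231 to 264587 on the 4 arrays. Single markers were less even than that sum. Their median log2 difference, ileum minus jejunum, was 0.33 in wild-type and 0.35 in G181R mice, with 5 higher and 2 lower in ileum in each. In wild-type mice they ran from -0.49 (Vil1) to 1.52 (Krt19), in G181R mice from -0.44 (Krt20) to 1.24 (Krt19).

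Upstream sequences of subunit genes are shown first, because the chain's nuclear genes are known targets of a few transcription factors: NRF1, the ETS factor GABP, YY1 and the nuclear receptor ERRalpha, which acts with the coactivator PGC-1alpha (gene Ppargc1a). The windows are RefSeq sequence (GRCm38.p6), 150 bases before the annotated start. Capitals mark a motif. For complexes I, II, III and V the subunit printed is that with the largest difference between ileum and jejunum in wild-type mice among those that hold a motif there and overlap no other gene. No complex IV subunit met that rule. Cox7a1 was added because its brightest probe had the largest such difference among the bright subunit probes, and it holds none of the motifs in this window. The windows lie at chr15:82354292-82354441 (minus strand, Ndufa6), chr4:140961121-140961270 (plus, Sdhb), chr10:80406822-80406971 (minus, Uqcr11), chr11:115419920-115420069 (minus, Atp5h) and chr7:30184021-30184170 (plus, Cox7a1).
Ndufa6: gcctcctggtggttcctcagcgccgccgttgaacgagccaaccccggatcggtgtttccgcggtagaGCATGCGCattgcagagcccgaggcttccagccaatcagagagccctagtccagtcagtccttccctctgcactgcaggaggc
Sdhb: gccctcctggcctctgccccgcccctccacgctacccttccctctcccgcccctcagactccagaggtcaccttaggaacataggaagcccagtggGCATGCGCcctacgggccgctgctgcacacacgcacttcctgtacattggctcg
Uqcr11: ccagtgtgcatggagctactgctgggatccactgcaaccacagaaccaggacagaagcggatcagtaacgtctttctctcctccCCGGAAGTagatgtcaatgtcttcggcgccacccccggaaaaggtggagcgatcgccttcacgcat
Atp5h: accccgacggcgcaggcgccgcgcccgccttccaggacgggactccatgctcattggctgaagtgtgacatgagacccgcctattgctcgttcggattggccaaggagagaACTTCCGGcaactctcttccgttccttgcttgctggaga
Cox7a1: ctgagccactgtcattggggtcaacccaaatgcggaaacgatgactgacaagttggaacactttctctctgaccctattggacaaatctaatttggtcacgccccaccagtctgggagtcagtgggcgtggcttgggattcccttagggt

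The capitals in Ndufa6 and Sdhb are the shorter NRF1 motif, which begins 83 and 54 bases before the start. Those in Uqcr11 and Atp5h are the ETS motif, on opposite strands, 66 and 39 bases before the start. Promoter sequence of 300 bases (250 before to 50 after the start) was at hand for 67 of the 82 subunits, in 72 windows, and both strands were searched. The shorter NRF1 motif, GCATGCGC, was in 13.9% of the subunit windows and in 3.52% of the windows of protein-coding genes. The longer NRF1 motif of 10 bases, which adds 2 bases before it, was in 6.94% against 1.33%. The YY1 motif AAGATGGC was in 13.9% against 3.05%, the ETS motif CCGGAAGT in 6.94% against 5.15%, and the ERRalpha motif TCAAGGTCA in 2.78% against 0.334%. Of all 32851 windows, any kind of gene included, these motifs were in 2.71% (shorter NRF1), 0.971% (longer NRF1), 2.75% (YY1), 3.89% (ETS) and 0.423% (ERRalpha). The YY1 motif was in 20.6% of the complex I windows and in 17.6% of those of complex V. The 2 windows with the ERRalpha motif belonged to Sdhd (complex II) and Atp5g3 (complex V). A motif is a match of letters and not a measured binding site.

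The first question is how the chain differs between the parts of the intestine. In wild-type mice, 77 of 79 measured subunits had a lower signal in ileum than in jejunum, and the median difference was -0.66 on the log2 scale, a 1.58-fold lower signal. Over all 20751 measured genes the median was -0.05, and 11088 of them were lower in ileum. A difference of at least 5/4-fold (0.32 on the log2 scale) in the lower direction was seen for 75 of the 79 subunits, where 32.4% of all measured genes had one. Only 1 of the 79, Cox6b2, was at least 5/4-fold higher, against 27.3% of all genes. The subunits were also close to each other: the 25th to 75th percentiles were -0.79 to -0.55, while those of all genes were -0.46 to 0.37. Subunit probes are bright, and among 1180 genes at least as bright as the lower quartile of the subunits the median was -0.14, with 39.7% at least 5/4-fold lower.

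The G181R mice gave the same picture on 2 other arrays, with differences that were smaller under the main processing. Less the median of all measured genes, the subunit medians were -0.60 in wild-type and -0.48 in G181R mice. Quantile normalization brought them to -0.49 and -0.45, and without the background filter the wild-type difference was the smaller. In G181R mice 77 of 79 subunits were lower in ileum, with a median of -0.51 (1.43-fold lower) against -0.03 over 21474 genes. Of those genes, 11186 were lower. At least 5/4-fold lower were 69 of 79 subunits, against 30.4% of all genes, and 0 were that much higher, against 27.9%. The 77 subunits lower in wild-type ileum were the same 77 that were lower in G181R ileum, and 69 were at least 5/4-fold lower in both. Among all genes, 9117 of 20418 were lower in ileum in both genotypes, and 4910 of 20418 were at least 5/4-fold lower in both. Across the 79 subunits the differences of the 2 genotypes, which share no array, had a Pearson r of 0.94 and a Spearman rho of 0.88, and r was 0.88 over 73 subunits without the alternative complex IV isoforms described further on. These coefficients run across genes, which are not independent replicates.

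**Figure D1:**
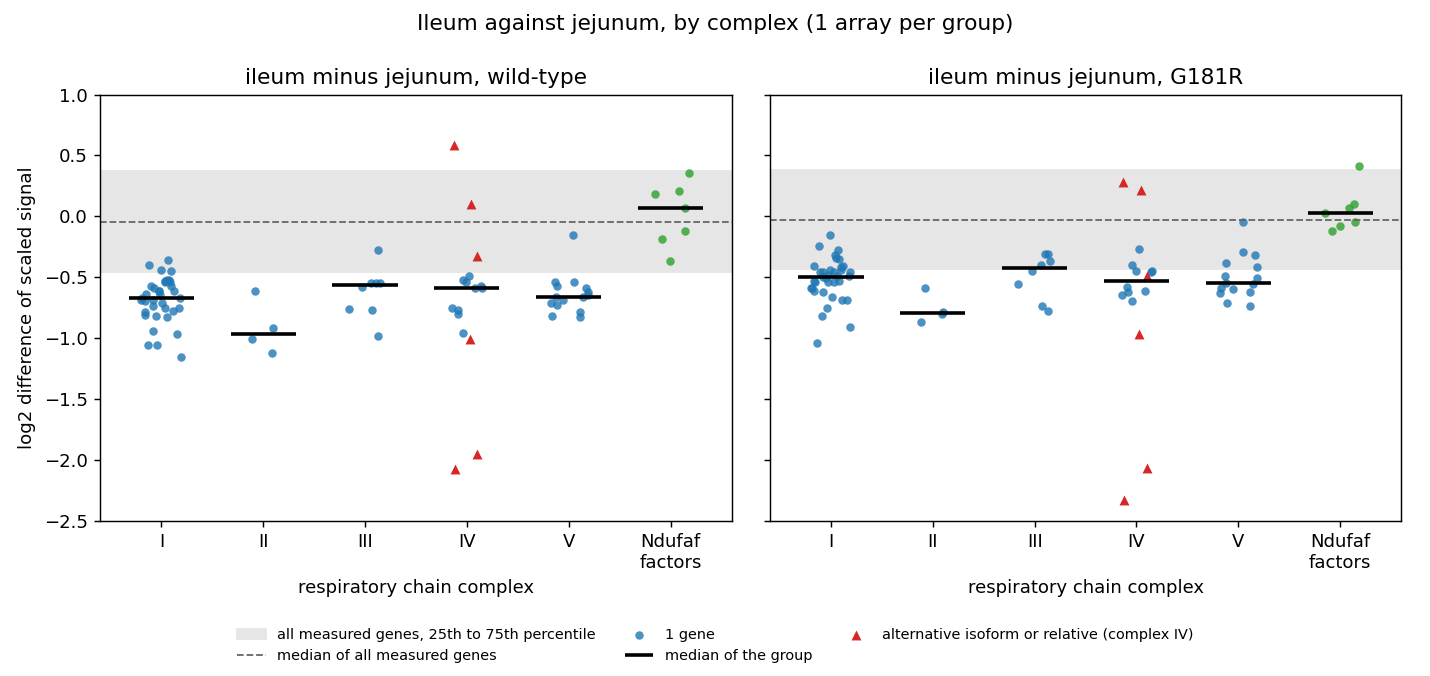
Each point is 1 gene, with its log2 difference in scaled signal between ileum and jejunum on the vertical axis and its complex on the horizontal axis, in wild-type (left) and G181R mice (right). Black lines are group medians, the dashed line is the median of all measured genes and the grey band runs from their 25th to their 75th percentile. The medians of complexes I to V lie between -0.96 and -0.57 in wild-type and between -0.79 and -0.43 in G181R mice, the Ndufaf factors lie near 0, and the red triangles in complex IV spread the most.

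The complexes were alike in the direction of their medians. Complex II had the lowest median, and the ranges of the subunits overlapped between all complexes. Complex I, the NADH dehydrogenase, had a median difference of -0.67 in wild-type mice and -0.50 in G181R mice, and all 36 of its subunits were lower in ileum in both. Its 7 catalytic core subunits, which carry the flavin and the iron-sulphur clusters, had medians of -0.61 and -0.48, and the 29 accessory subunits -0.67 and -0.50. Ndufv1, which holds the flavin, had scaled signals of 13793 and 13315 in jejunum and 7870 and 8723 in ileum, the wild-type value first each time. Both ileum values lay below both jejunum values, 1.75-fold lower in wild-type and 1.53-fold in G181R mice. Ndufv2, Ndufs1, Ndufs3, Ndufs7 and Ndufs8, also of the core, ran from -0.79 (Ndufs3) to -0.44 (Ndufs8) in wild-type mice and from -0.53 (Ndufs3) to -0.15 (Ndufs8) in G181R mice.

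Among the accessory subunits of complex I the widest gap was that of Ndufb3 in wild-type mice, at -1.16. Its scaled signals were 12107 and 11095 in jejunum and 5427 and 5925 in ileum. Ndufa1, an X-linked subunit of the membrane arm, had -1.06 in wild-type and -1.04 in G181R mice, the lowest value of complex I in the latter, with signals of 25997 and 26935 in jejunum and 12483 and 13125 in ileum. Ndufa5 came to -1.06 and -0.75. At the other end in wild-type mice was Ndufs4, with -0.36, and in G181R mice Ndufs6, with -0.24. Ndufs4 had -0.28 in G181R mice and signals of 7404, 7709, 5752 and 6356 on the 4 arrays, jejunum before ileum and wild-type before G181R within each. Even for Ndufs4 the ileum and jejunum signals did not overlap.

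Complex II, succinate dehydrogenase, is also an enzyme of the tricarboxylic acid cycle and has no mtDNA-encoded subunit. Its median was the lowest of the 5 complexes, -0.96 in wild-type (1.95-fold lower) and -0.79 in G181R mice, but it rests on 4 genes. The iron-sulphur subunit Sdhb had scaled signals of 35608 and 33745 in jejunum and 18775 and 19582 in ileum, a difference of -0.92 in wild-type mice. The membrane anchors Sdhc and Sdhd had -1.12 and -1.01 there and -0.80 and -0.87 in G181R mice. The flavoprotein Sdha differed less, with -0.61 and -0.59 and signals of 10358, 10347, 6794 and 6858. From the lowest difference upwards, Sdhc, Sdhd and Sdhb were in places 4, 7 and 13 among 79 subunits in wild-type mice and 8, 6 and 9 in G181R mice, and Sdha in places 45 and 27.

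Complex III, which passes electrons from ubiquinol to cytochrome c, had medians of -0.57 and -0.43 over 8 subunits. Uqcrc1, a core protein, had the largest difference, -0.98 and -0.78, with signals of 18568 and 20534 in jejunum and 9402 and 11944 in ileum. The second core protein, Uqcrc2, had -0.55 and -0.40, and the Rieske iron-sulphur protein Uqcrfs1 -0.77 and -0.74. Uqcrh, the hinge protein, had -0.58 and -0.45. Uqcrb was least different, at -0.28 and -0.31, and was the only subunit of complex III under 5/4-fold in wild-type mice.

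Complex V had medians of -0.66 and -0.55, with all 15 subunits lower in ileum in both genotypes. In the catalytic F1 head, the alpha subunit Atp5a1 had signals of 51953 and 51291 in jejunum and 34426 and 40958 in ileum, and the beta subunit Atp5b had 68172, 65214, 45858 and 50071. The gamma subunit Atp5c1 had differences of -0.66 and -0.56. The stalk and membrane subunits had medians of -0.73 and -0.62, and among them Atp5h was lowest of the complex, with -0.83 and -0.74. The ring of c subunits can be made from any of 3 genes that encode the same mature protein. Atp5g1 differed by -0.54 and -0.29, Atp5g3 by -0.65 and -0.42, and Atp5g2 by -0.15 and -0.05. Atp5g2 had signals of 20280 and 20039 in jejunum and 18277 and 19295 in ileum, the smallest gap of the complex. Its direction turned under quantile normalization, which gave 0.02 and 0.05.

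Complex IV, cytochrome c oxidase, had medians of -0.59 and -0.54 over 16 measured subunits in each genotype, and the widest range. Its 10 common isoforms, present in most tissues, were tightly grouped, with medians of -0.59 and -0.52. Cox4i1 had scaled signals of 39494 and 37542 in jejunum and 26680 and 27243 in ileum, and Cox5a had 52566, 53739, 36616 and 40821. Ndufa4, once assigned to complex I and now to complex IV, had -0.96 and -0.70, the largest difference of the common set. Cox8a had the smallest, -0.49 and -0.27. Cox6a1, Cox6b1, Cox6c, Cox7a2, Cox7b and Cox7c lay between, from -0.80 (Cox7c) to -0.54 (Cox6a1) in wild-type mice.

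The complex IV genes that replace a common isoform in certain tissues, with the related Cox7a2l, behaved less uniformly. Cox7a1, the isoform of heart and skeletal muscle that takes the place of Cox7a2, was bright in jejunum, at 20366 in wild-type and 17755 in G181R mice, and lay at 5281 and 4230 in ileum. It was 3.86-fold lower in wild-type ileum and 4.20-fold lower in G181R ileum (log2 -1.95 and -2.07). Cox7a2 itself differed by -0.77 and -0.62. The Cox7a1 probe lies at chr7:30970337-30970948 (mm9, plus strand), a span of 612 bases for a probe of 60, so it crosses a splice junction. It is printed with the Cox6b1 probe, of a common isoform, which also crosses a junction, at chr7:31409575-31411071 (minus strand). Capitals in the Cox7a1 probe mark the longest run it shares with the Cox7a2 probe.
Cox7a1: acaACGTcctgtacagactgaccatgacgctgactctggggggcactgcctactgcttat
Cox6b1: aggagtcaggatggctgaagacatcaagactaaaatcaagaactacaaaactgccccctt

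The run shared with the Cox7a2 probe is 4 bases long. Between the probes of the other isoform pairs examined, the longest shared run was 4 to 7 of 60 bases, so the pairs had little sequence in common on the array. Cox6a2, the muscle isoform of Cox6a, was dim, at 75.5 and 94.6 in jejunum and 17.8 and 18.8 in ileum, 4.23-fold lower in wild-type and 5.03-fold lower in G181R ileum. For this dim probe the size of the difference depended on the background correction, and normexp gave -0.94 and -1.06 in place of -2.08 and -2.33. Cox7b2 was also dim, with 95.3 and 63.4 in jejunum and 47.2 and 32.4 in ileum. Its differences of -1.01 and -0.97 came to -0.58 and -0.45 with normexp. These 2 genes and Cox7a1 were lower in ileum.

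The remaining genes of this set went the other way or were near background, except Cox7a2l, which was bright and lower in ileum. Cox6b2, known as the testis isoform, was the only one of the 79 measured subunits at least 5/4-fold higher in wild-type ileum (0.59, signals 174.7 in jejunum and 262.1 in ileum), and it was 0.28 higher in G181R mice (138.2 and 168.3). Cox4i2, an isoform of lung known to respond to low oxygen, had 103.9 and 102.2 in jejunum and 111.5 and 119.3 in ileum. Cox7a2l, which helps to join complexes III and IV into supercomplexes and is not a replacement isoform, had -0.33 and -0.49. Ndufa4l2, a relative of Ndufa4 known as a target of hypoxia-inducible factor, was well above background on the jejunum arrays alone, at 17.0 on each, and was at least 2.59-fold lower in wild-type ileum and at least 2.89-fold lower in G181R ileum. Cox8b, a muscle isoform, was well above background on the ileum arrays alone, at 20.0 in wild-type and 7.82 in G181R mice. It was at least 2.51-fold and at least 1.27-fold higher there than in jejunum. Each bound was computed against the higher of the probe's own signal and the lowest signal well above background on the dim array. Cox8c, a testis isoform, was not well above background on any array.

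**Figure D2:**
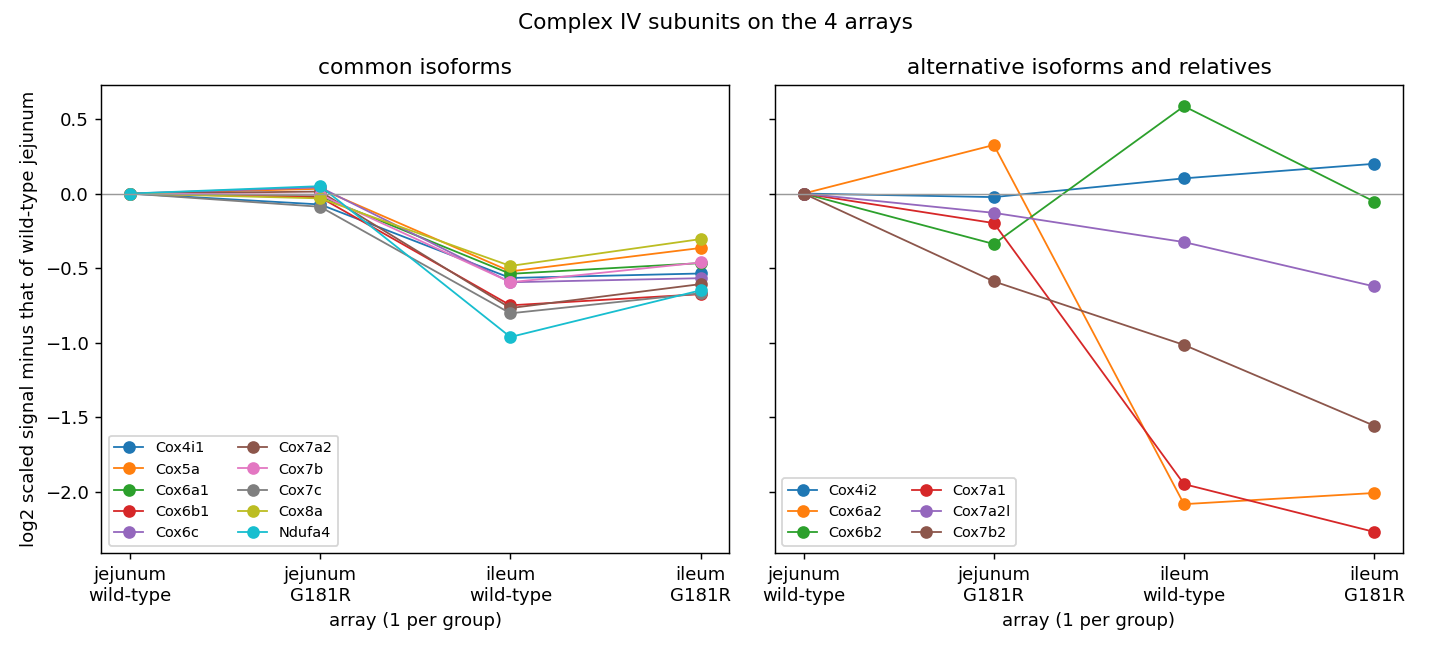
Lines join the log2 scaled signals of each complex IV gene on the 4 arrays (horizontal axis), less its value in wild-type jejunum, for genes well above background on all arrays. The 10 common isoforms (left) move together, whereas among the 6 alternative genes (right) Cox7a1, Cox6a2 and Cox7b2 lie lowest in ileum and Cox6b2 and Cox4i2 lie above their wild-type jejunum level in wild-type ileum.

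At a stricter size, 8 of 79 subunits were at least 2-fold lower in wild-type ileum, where 9.12% of all measured genes were, and 3 of 79 in G181R ileum, where 8.73% were. In the other direction 0 of the 79 reached 2-fold, against 7.4% of all genes in wild-type and 7.29% in G181R mice. Cox8b and Ndufa4l2, which were not measured in both regions, are outside these counts and those at 5/4-fold, and only their bounds are known. The share at least 2-fold lower was near the background in wild-type mice, and the other shares were below it. The 8 were Ndufb3, Ndufa1, Ndufa5, Sdhc, Sdhd, Cox6a2, Cox7a1 and Cox7b2. The 3 were Ndufa1, Cox6a2 and Cox7a1. Most of these lay close to 2-fold (-1 on the log2 scale), and in wild-type mice the alternatives run left Ndufb3 and Cox7a1 past it under every one. Quantile normalization gave -0.89 for Ndufa1, -0.90 for Ndufa5, -0.99 for Sdhc and -0.84 for Sdhd there, and -0.94 for Ndufa1 in G181R mice, and normexp took Cox6a2 and Cox7b2 under 2-fold in wild-type mice as given above.

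Marker genes of cell types, enterocytes included, also differed between the regions. The summed scaled signal of 9 enterocyte markers (Alpi, Fabp1, Apoa4 and Sis among them) was 588595 and 540023 in jejunum and 235856 and 206331 in ileum, with median differences of -1.29 and -1.59, and all 9 were lower in ileum in both genotypes. These markers were uneven, from Fabp1, at -5.26 and -5.82, to Anpep, at -0.23 and -0.26. The 7 markers of cycling cells, Mki67 and Cdk1 among them, were higher in ileum, with medians of 1.19 and 1.17. The 12 smooth muscle markers summed to 13157 and 13117 in jejunum and to 20623 and 9124 in ileum, so that ileum was the higher region in wild-type mice and the lower in G181R mice. The 4 B cell markers were higher in ileum, with medians of 1.88 (3 measured) and 3.23 and summed signals of 226.8 and 128.0 in jejunum and 784.4 and 1315 in ileum. The 7 adipocyte markers had medians of 2.33 (6 measured) and 1.36, with 4 higher and 2 lower in wild-type ileum and 5 higher and 2 lower in G181R ileum. Cidec was the lowest, at -1.68 and -2.57. The summed signal of the list, which leans to its brightest probes, went from 13126 to 8739 in wild-type and from 11700 to 4302 in G181R mice. The 6 fibroblast markers were divided, with 4 lower and 2 higher in ileum in each genotype and medians of -0.49 and -0.94. They ran from Pdgfra, at -1.38 and -1.45, to Lum, at 2.81 and 2.15. Their summed signals were 2565 and 2171 in jejunum and 2571 and 1727 in ileum. Of the 9 striated muscle markers, Ckm and Mb were not well above background on any array. The list had medians of -0.95 (5 measured) in wild-type and -0.59 (4 measured) in G181R mice. In each genotype 1 marker was higher in ileum, Myh4 (0.17) in wild-type and Tnnt2 (0.30) in G181R mice. Actn2, the lowest of the list and expressed in other tissues too, had 46.3 and 43.6 in jejunum and 10.8 and 9.38 in ileum. The part of these cells in the subunit differences was not tested. In whole scraped tissue, fewer cells of a type and less RNA per cell cannot be told apart.

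Other mitochondrial gene lists place the subunits. The 11 mtDNA-encoded subunits found on the array had medians of -0.51 in wild-type and -0.52 in G181R mice, and all 11 were lower in ileum in both. Examples are COX1, the catalytic subunit of complex IV, at -0.93 and -0.33, and CYTB of complex III at -0.47 and -0.41. The ND3 probe is assigned to chromosome 1, where nuclear copies of mtDNA occur, so it may not be specific. The 17 genes of the tricarboxylic acid cycle and pyruvate dehydrogenase had medians of -0.61 and -0.53, led by malate dehydrogenase Mdh2 at -1.74 and -1.51, with Suclg2 on the other side at 0.88 and 0.62. Cytochrome c (Cycs) had -0.53 and -0.30, and cytochrome c1 (Cyc1), a complex III subunit outside the name rule, -0.79 and -0.53. The 77 genes of the mitochondrial ribosome differed less, with medians of -0.09 and 0.04. The 7 Ndufaf factors, which help to build complex I and do not stay in it, had medians of 0.07 and 0.03. Thus 36 of 36 complex I subunits were lower in ileum while 3 of 7 Ndufaf factors were. The 38 assembly factors outside the name rule had -0.24 and -0.14, with Sco2, a copper carrier for complex IV, lowest at -1.44 and -1.64.

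Regulators of these genes did not move as 1 block. Ppargc1a had scaled signals of 2759 and 2067 in jejunum and 420.1 and 209.8 in ileum, log2 differences of -2.72 and -3.30. Its relative Ppargc1b had -0.71 and -0.65, and ERRalpha (Esrra) -0.54 and -0.55. Pprc1, another member of the coactivator family, was higher in ileum, by 1.23 and 1.16. Nrf1 (0.38 and 0.27), Yy1 (0.27 and 0.19) and Tfam (0.15 and 0.15), the main mtDNA packaging factor, were slightly higher, and Gabpa was lower (-0.36 and -0.31). Over the 16 regulators the medians were 0.13 and -0.12. Subunits whose promoter holds the shorter NRF1 motif had a wild-type median of -0.74 (n = 10) and the others -0.66 (n = 56). With the YY1 motif it was -0.64 (n = 10) and without it -0.68 (n = 56). With the longer NRF1 motif it was -0.82 (n = 5) and without it -0.67 (n = 61). For the ETS motif the medians were -0.76 (n = 5) and -0.67 (n = 61), and for the ERRalpha motif -0.83 (n = 2) and -0.67 (n = 64). The groups overlap widely.

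**Figure D3:**
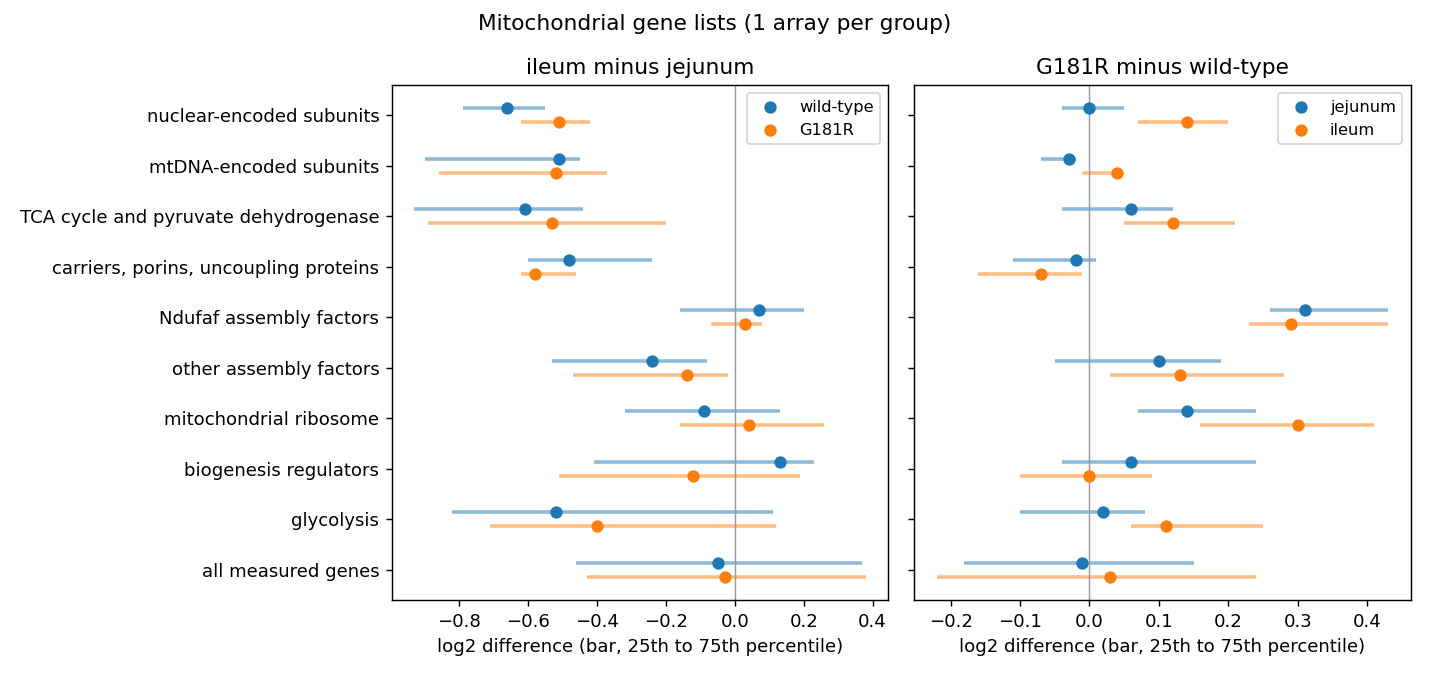
Points are medians of the log2 difference over the measured genes of each list, and bars run from the 25th to the 75th percentile of genes, for ileum minus jejunum (left, wild-type and G181R mice) and G181R minus wild-type (right, jejunum and ileum). Nuclear and mtDNA-encoded subunits and the tricarboxylic acid cycle lie between -0.66 and -0.51 on the left, where ribosome and Ndufaf factors lie near 0; on the right the Ndufaf factors have medians of 0.31 and 0.29.

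The second question is how the chain differs between the DAO genotypes. In jejunum the subunits were nearly alike. The median difference, G181R minus wild-type, was 0.00 over 80 measured subunits, against -0.01 over 21225 genes, with 39 above 0 and 41 below. At least 5/4-fold higher was 1 subunit, Cox6a2, against 11.1% of all genes, and at least 5/4-fold lower were 2, Cox7b2 and Cox6b2, against 13.4%. No subunit reached 2-fold in either direction, against 0.763% of all genes higher and 0.749% lower. The 73 subunits other than the alternative complex IV genes stayed between -0.13 (Ndufb3) and 0.18 (Uqcrb). By complex the medians were 0.02 (I), -0.04 (II), 0.04 (III), -0.02 (IV) and 0.00 (V). The extremes of the complexes were Ndufb3 (-0.13) and Ndufv2 (0.07), Sdhc (-0.12) and Sdhd (0.07), Uqcrq (-0.08) and Uqcrb (0.18), Cox7b2 (-0.59) and Cox6a2 (0.33), and Atp5b (-0.06) and Atp5g1 (0.13).

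In ileum the common subunits were slightly and broadly higher in G181R mice. The median was 0.14 over 80 measured subunits, against 0.03 over 21477 genes and 0.07 over the bright genes, and 74 of 80 were above 0. Of the 21477 genes 11438 were above 0, and of the 1180 bright genes 814. Few subunits reached 5/4-fold: 5 were higher, against 18.7% of all genes, and 3 were lower, against 18.3%. That share is below the background, so the shift was small for each gene and lay in the direction most of them had in common. It depended on the scaling, since quantile normalization gave 0.06 over all genes and 0 subunits at least 5/4-fold higher. The medians were 0.18 for complex I (35 of 36 above 0), 0.13 for II (4 of 4), 0.15 for III (8 of 8), 0.07 for IV (12 of 17) and 0.13 for V (15 of 15). On the same arrays the median was 0.63 for cycling-cell markers, 0.72 for B cell markers and -0.24 for enterocyte markers, and their part in the subunit shift was not tested.

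The 5 subunits at least 5/4-fold higher were Ndufa12 (0.40), Ndufb6, Ndufc2, Uqcrc1 and Atp5g1. Ndufa12, an accessory subunit near the NADH site, had 7803 in ileum of wild-type and 10269 in that of G181R mice, and 13844 and 14443 in jejunum, so the G181R value lay between wild-type ileum and jejunum. Uqcrc1 was 0.35 higher, from 9402 to 11944, and Atp5g1 was 0.38 higher, from 17132 to 22368. Among core subunits, Ndufs8 (0.32), Ndufs1 (0.25) and Atp5a1 (0.25) had the larger differences, and Sdha (0.01), Cox4i1 (0.03) and Atp5c1 (0.05) lay near 0. With 1 array per group the spread between animals behind these values is unknown. Ndufa6 was the lowest of complex I, at -0.01.

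Within complex IV the common isoforms and most alternative genes lay on opposite sides of 0 in ileum. All 10 common isoforms were above 0, from 0.03 (Cox6c) to 0.31 (Ndufa4), with a median of 0.13. Of the 7 measured alternative genes, 5 were below 0 and the median was -0.32. The other 2, Cox4i2 (0.10) and Cox6a2 (0.08), were above 0 and within the range of the common isoforms. Cox6b2 went from 262.1 in wild-type to 168.3 in G181R ileum (-0.64), Cox7b2 from 47.2 to 32.4 (-0.54), Cox7a1 from 5281 to 4230 (-0.32) and Cox7a2l from 13839 to 11264 (-0.30). Cox8b had the largest difference, from 20.0 to 7.82 (-1.35), close to the background. It was the only subunit at least 2-fold lower, against 3.21% of all genes, and 0 were 2-fold higher, against 2.01%. Normexp ended that call, with -0.20 for Cox8b, and gave -0.20 for Cox7b2. Cox7a1, Cox7a2l, Cox6b2 and Cox7b2 were also below 0 in jejunum, at -0.20, -0.13, -0.34 and -0.59. Over the same arrays the 12 smooth muscle markers had a median of -2.37 in ileum, with summed signals of 20623 (wild-type) and 9124 (G181R), and Myh11, smooth muscle myosin, went from 334.8 to 57.6. Their median was 0.12 in jejunum, where these Cox genes were below 0 too. The 7 adipocyte markers had a median of -1.04 in ileum (summed signals 8739 and 4302) and -0.32 in jejunum (6 measured, 13126 and 11700). The 6 fibroblast markers had -0.64 in ileum (2571 and 1727) and -0.26 in jejunum (2565 and 2171), all 6 below 0 in both. Cidea, the 1 brown adipocyte marker measured in ileum, went from 20.98 to 7.261 there (-1.53) and was 0.35 in jejunum. The part of these cells in the Cox differences was not tested.

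**Figure D4:**
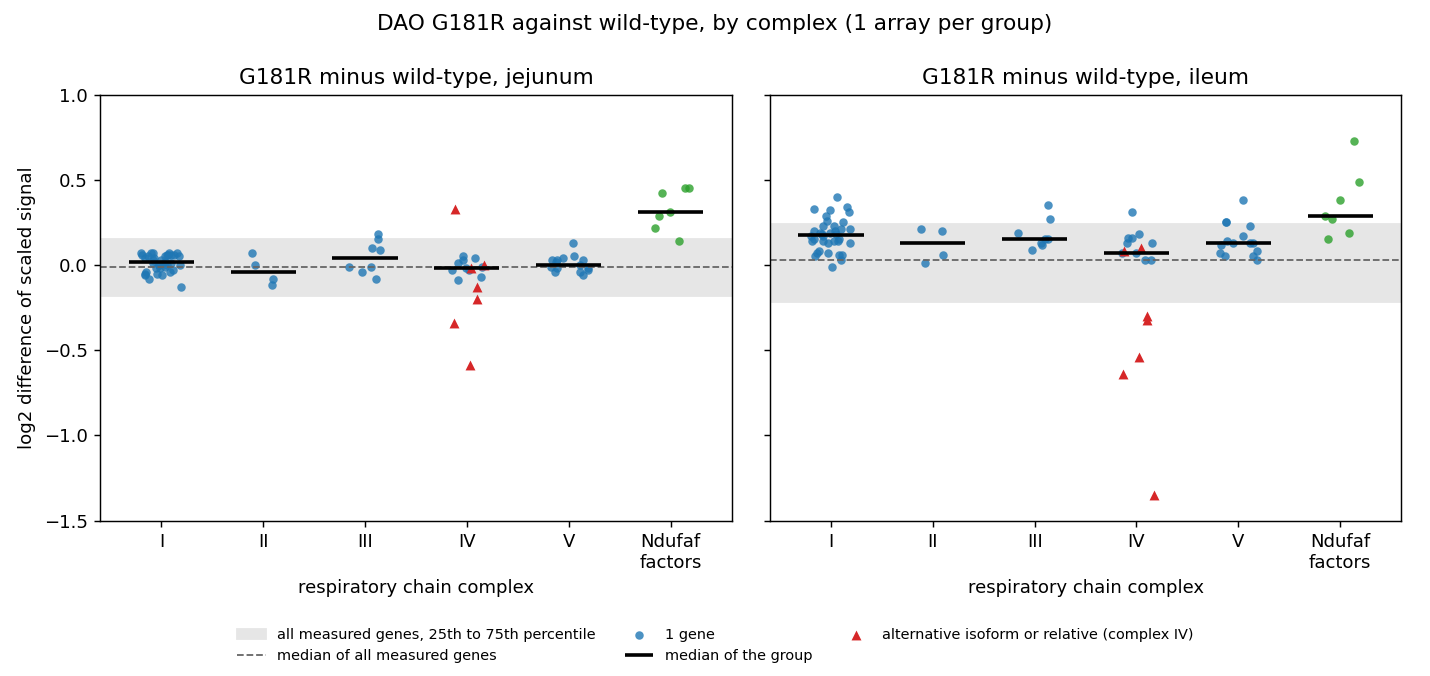
Each point is 1 gene, with its log2 difference in scaled signal between G181R and wild-type mice on the vertical axis and its complex on the horizontal axis, in jejunum (left) and ileum (right). Lines and band are the medians of each group, the median of all measured genes and their 25th to 75th percentiles. In jejunum the complexes have medians between -0.04 and 0.04, in ileum between 0.07 and 0.18, and the Ndufaf factors have 0.31 and 0.29.

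The Ndufaf assembly factors of complex I stood higher in G181R mice than in wild-type mice in both tissues. By their brightest probes all 7 were above 0 in jejunum (median 0.31, 1.24-fold) and all 7 in ileum (median 0.29, 1.23-fold). Among all measured genes, 10264 of 21225 were above 0 in jejunum and 11438 of 21477 in ileum. At least 5/4-fold higher were 3 of 7 in each tissue, against 11.1% of all genes in jejunum and 18.7% in ileum. The complex I subunits, which they help to assemble, had medians of 0.02 in jejunum and 0.18 in ileum. Ndufaf4 had scaled signals of 418.4 and 569.7 in jejunum (wild-type first) and of 323.6 and 538.5 in ileum, differences of 0.45 and 0.73, the larger being the widest of the list. Ndufaf5, a hydroxylase acting on the core subunit Ndufs7, had 162.1 and 221.9 in jejunum and 169.7 and 237.6 in ileum (0.45 and 0.49). Ndufaf2, a chaperone of late assembly, had 498.6 and 668.2 in jejunum and 566.0 and 681.9 in ileum (0.42 and 0.27). Ndufaf3, the partner of Ndufaf4, had 248.6 and 307.3 in jejunum and 217.4 and 283.6 in ileum (0.31 and 0.38). For these 4 probes the G181R signal exceeded the wild-type signal in both tissues. A second Ndufaf5 probe did not do so in jejunum, with 83.54 in wild-type and 76.02 in G181R mice (-0.14), and had 62.65 and 69.1 in ileum (0.14). Ndufaf1, Ndufaf6 and Ndufaf7 had 0.22, 0.14 and 0.29 in jejunum and 0.29, 0.19 and 0.15 in ileum. A dim further probe of Ndufaf6 had 0.16 in jejunum and -0.20 in ileum (20.98 in wild-type and 18.24 in G181R mice). Another Ndufaf6 probe had 0.14 in both tissues, and a second Ndufaf7 probe had 0.25 and 0.17. The factors' probes are dimmer than those of the subunits. The 2 printed here, which cross splice junctions, are those of Ndufaf3, at chr9:108468692-108468899 (mm9, minus strand), and Ndufaf5, at chr2:140014595-140019324 (plus strand).
Ndufaf3: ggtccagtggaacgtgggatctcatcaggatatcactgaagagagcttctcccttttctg
Ndufaf5: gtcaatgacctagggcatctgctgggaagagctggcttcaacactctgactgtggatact

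Both probes are 60 bases long. Of 6 Ndufaf promoter windows, 2 (33.3%) held the longer NRF1 motif, against 1.33% of the windows of protein-coding genes. None held the ETS, YY1 or ERRalpha motif, which were in 5.15%, 3.05% and 0.334% of the latter. With 6 windows these shares cannot be compared. The other members with similar names were low or unremarkable. Atp5s (RefSeq Dmac2l) had -0.12 and 0.03, Atp5sl (Dmac2) had -0.09 and -0.22, and the pseudogene Atp5c1-ps, which may take up label of the like Atp5c1 RNA, had 0.07 and 0.05.

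The other mitochondrial lists differed in how they compared between genotypes. The mitochondrial ribosome, which translates the mtDNA-encoded subunits, had medians of 0.14 in jejunum (70 of 77 above 0) and 0.30 in ileum (74 of 77), with 8 and 34 of the 77 genes at least 5/4-fold higher, against 11.1% and 18.7% of all genes. The count in jejunum is near that background. Mrpl40 was 0.53 higher in jejunum and 0.42 higher in ileum, and Mrpl35, whose probe is dim, was 0.02 and 0.84. The mtDNA-encoded subunits had medians of -0.03 and 0.04, with COX1 at -0.11 and 0.49 and ND5 at 0.21 and -0.23. The 38 assembly factors outside the name rule had 0.10 and 0.13. Among them Sdhaf1, which helps to insert iron-sulphur clusters in Sdhb, was 0.51 and 0.53, Cox10, which makes the haem of complex IV, was 0.17 and 0.60, and Sco2 was -0.19 and -0.39. The tricarboxylic acid cycle list had 0.06 and 0.12, with Dlat at 0.22 and 0.61. Cycling-cell markers were higher in G181R mice too, with medians of 0.52 and 0.63 and 7 of 7 above 0 in both tissues. Their part in the ribosome and assembly factor values was not tested.

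Regulators and neighbours outside the chain gave single large differences. Ppargc1a was lower in G181R mice, by -0.42 in jejunum and -1.0 in ileum, while Pprc1 was higher by 0.69 and 0.63. Slc25a4, an ADP/ATP carrier of muscle type, was 0.04 in jejunum and -0.89 in ileum. Hk2, a hexokinase bound to mitochondria, had scaled signals of 164.4 and 323.9 in jejunum and 1109 and 5314 in ileum, differences of 0.98 and 2.26, while the 14 glycolysis genes had medians of 0.02 and 0.11. Ucp1, the brown fat uncoupling protein, was not well above background on any array.

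The third comparison sets the genotype differences of the tissues against each other. The difference in ileum minus that in jejunum had a median of 0.13 over the 79 subunits, against 0.01 over 20418 genes, and 72 of 79 were above 0. Of the 20418 genes 10595 were above 0, and of the 1180 bright genes 711, with a median of 0.03. By arithmetic this difference is also the amount by which the gap between ileum and jejunum was smaller in G181R mice. It was 0.17 for complex I, 0.14 for II, 0.16 for III, 0.10 for IV and 0.11 for V, with the highest value for Ndufa12 (0.34) and the lowest for Cox6b2 (-0.30). The Ndufaf factors had 0.05. Over the subunits the 2 genotype comparisons, which share no array, had an r of 0.70 (rho 0.45, n = 79), and without the alternative complex IV genes an r of 0.41 (rho 0.39, n = 73), so much of the first value rested on those few genes. Over the alternatives run, the subunit median of the difference between the tissues, less that of all genes, was 0.04 to 0.12. No test of these differences was possible.

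**Figure D5:**
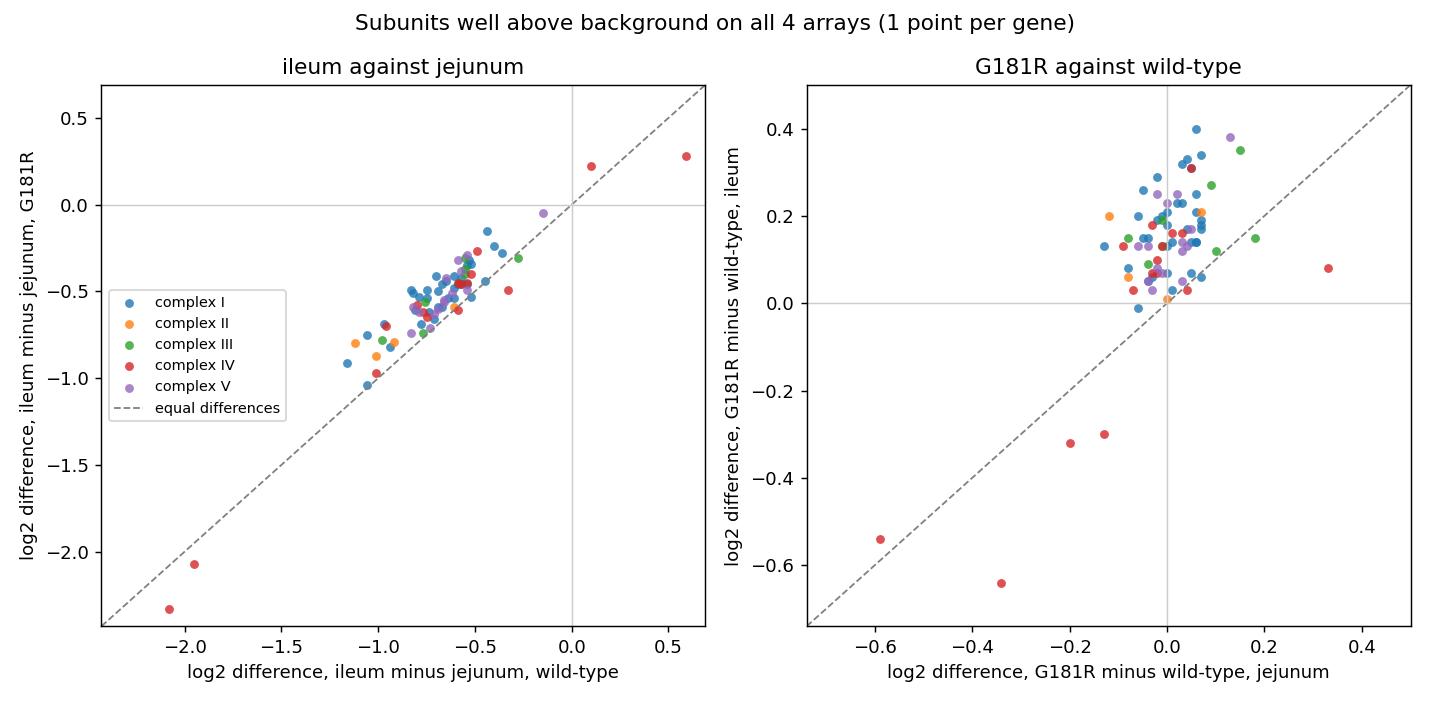
Each point is 1 of the 79 subunits well above background on all 4 arrays, coloured by complex. The left panel sets the log2 difference between ileum and jejunum in G181R mice against that in wild-type mice, the right panel the log2 difference between G181R and wild-type mice in ileum against that in jejunum. Most points lie above the dashed line of equal differences in both panels, 72 of 79 of them, and the points far from the main group belong to complex IV.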

How the data were processed

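The members and gene lists were chosen with earlier results of these data known. Per the file headers, the authors' scanner files hold intensity values made with Agilent Feature Extraction 11.5.1.1, with background subtracted and no scaling between arrays, and the deposited flags (other values, 0 or 1) mark outlier or saturated spots and those clearly over background. The series' own value table was not used here. Log2 intensities were averaged over the spots of a probe without outlier spots, and the 75th percentile of all non-control probes of the array was subtracted (Python 3.11.15, pandas 2.3.3, numpy 2.4.6). With 1 array per group no test was made, and differences are described by size, with thresholds of 1.25-fold and 2-fold, beside all measured genes. Precision is limited by the number of arrays. The named genes are, in each comparison, the highest and lowest of each complex and of the Ndufaf factors, every member at least 2-fold different, the core subunits, the isoform families and up to 3 members of each other list in each direction. Single genes outside this rule (Ndufb6, Ndufc2, other subunits given to fill a complex, regulators and markers) were named after their values were seen. Of the members, 91 matched RefSeq (GRCm38.p6) by accession, and 3 have another symbol there. The alternatives were normexp with an offset of 50 (limma 3.58.1 in R 4.3.3), quantile normalization, another centring, other background filters, the mean over a gene's probes, outlier spots kept and bright genes as reference. Some genes that these rules and lists hold enter the counts and medians, but their own values are not reported here. The counting was tested on simulated data.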

Additional observations from a re-analysis of the deposited data

Results flagged for a closer look

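The genotype difference, G181R minus wild-type, had opposite signs in jejunum and ileum for 2 subunits, by at least 0.09 on the log2 scale in each tissue. For Ndufb3, an accessory subunit of complex I, it was -0.13 in jejunum and 0.13 in ileum, a difference of 0.25 between the tissues from the unrounded values. For Sdhc, a membrane anchor of complex II, it was -0.12 in jejunum and 0.20 in ileum, a difference of 0.32. With 1 array per group the difference between the tissues was not tested. Both signs held under the alternatives run for these genes.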

How the results depend on the processing

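No paired analysis was possible because each group is 1 array. The values given here are medians less the median of all measured genes, as log2 differences, each with complexes in the order I to V. Under all alternatives run, the medians of all subunits and of each of the 5 complexes kept their sign in both region comparisons and between genotypes in ileum. The genotype medians in jejunum lie near 0 and changed sign for all subunits and for complexes II and IV. Normexp gave -0.52 for wild-type ileum minus jejunum (complexes -0.53, -0.82, -0.42, -0.44 and -0.53), -0.43 for G181R (II to V -0.70, -0.33, -0.41 and -0.47) and 0.05 for complex V between genotypes in ileum, with 0 subunits 5/4-fold higher and 1 lower in G181R jejunum and 3 higher in ileum. Quantile normalization gave -0.49 in wild-type mice (-0.51, -0.79, -0.38, -0.45 and -0.47), complexes I, II and V at -0.42, -0.70 and -0.47 in G181R mice, and 0.06 between genotypes in ileum (I, II, III and V at 0.09, 0.05, 0.07 and 0.06), with 0 subunits higher in jejunum, and 0 higher and 5 lower in ileum. Centring on the median of probes well above background gave 8 subunits higher in G181R ileum. Without the background filter the reference held dim genes, and the median of all genes moved to -0.10 and -0.12 for the genotype comparisons in jejunum and ileum and to -0.27 and -0.07 for the regions in wild-type and G181R mice. The subunit medians above it were then 0.10 in jejunum (0.12, 0.06, 0.14, 0.08 and 0.10), 0.25 in ileum (0.29, 0.25, 0.27, 0.19 and 0.24), -0.38 in wild-type mice (-0.40, -0.69, -0.30, -0.32 and -0.38) and -0.44 in G181R mice (IV at -0.42), and 0.04 for the difference of the genotype differences. Under that setting 2 subunits were higher in G181R jejunum, 2 in wild-type ileum and 1 in G181R ileum against jejunum. The mean over probes gave 0.01 for complex II in jejunum and -0.53 in wild-type mice (I, II and V at -0.56, -0.87 and -0.54). Against bright genes only, the subunit medians were 0.07 (genotype, ileum), -0.51 (wild-type) and -0.38 (G181R). The cause of these shifts was not tested, except that the last 3 settings change the genes or probes compared. The spot SD covers spots of 1 hybridisation, not mice or pools, and dim probes such as Cox6a2, Cox7b2 and Cox8b are limited by their signal over background.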
